A study of Cricetulus griseus with 16 samples.

Results

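The DNAJ (HSP40) family of Chinese hamster ovary (CHO) cells was followed under mild and moderate heat. Its members were taken as every gene in the count table whose name begins with DNAJ, followed by A, B or C and a digit, and 41 of the 20824 genes listed met this rule. The data are RNA-seq read counts from bulk cultures of the CHO line CCL-61, an established epithelial-like line, seeded the day before and kept in logarithmic growth. There were 4 groups of 4 biological repeats, lettered A to D: cells kept at 37 °C without treatment, cells at 40 °C for 1 h, cells at 40 °C for 6 h and cells at 42.5 °C for 1 h. All groups are of the same unmodified line, no agent other than heat was given, and every result therefore describes this line alone. No marker set defines the CHO line, and its label was not checked against one.

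J proteins are the co-chaperones of HSP70. Their J domain binds HSP70 and speeds its ATP hydrolysis, which locks the chaperone onto an unfolded client, and nucleotide exchange factors such as the BAG proteins and HSP110 then let the client go. Members of types A and B mostly bring unfolded proteins to HSP70 in the cytosol and nucleus, whereas the C type holds the J domain in proteins placed at the endoplasmic reticulum (ER), in mitochondria, on vesicles or at the ribosome. DNAJB1 is a classical target of heat shock factor 1, and several ER members are known targets of the unfolded protein response.

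The mild treatments are written 40 °C/1 h and 40 °C/6 h. Levels are given as CPM, the counts scaled to a common library size over all 16 libraries, and they are compared only within a gene, since gene lengths were not used. Library totals ran from 10504192 to 14668365 counts, and 3 counts, taken as the detection floor, corresponded to 0.205 to 0.286 CPM. Replicate D at 37 °C was left out of the tests. Across 10565 genes its Pearson's r with the other 37 °C libraries was 0.975 to 0.9774, against 0.9962 to 0.9968 among those 3. Of 35 members with enough counts to compare, 28 lay outside the range of replicates A to C in replicate D, and 2 (Dnajb13 and Dnajc6) were at least 1.5-fold away from their mean. Comparisons with 37 °C thus rest on 3 control and 4 heated libraries, and the 3 comparisons share those controls. A difference of a DNAJ member that no longer passed with replicate D included is marked as such. For other genes named, results with that library are not given. In bulk RNA, a change in every cell and a larger change in some of the cells cannot be told apart.

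Of the 41 members, 38 had a count in at least 1 library, and Dnaja4, Dnajb8 and Dnajc5g were at 0 in all 16, which allows a level of up to 0.286 CPM in the shallowest library. The filter on low counts was passed by 34 members in every comparison. The other 7 were those 3 and Dnajb7, Dnajb13, Dnajc5b and Dnajc12, all of them at low counts. DNAJB6, DNAJC8, DNAJC14 and DNAJC19 were not matched by name and were not analysed here. A gene was called when its edgeR quasi-likelihood test gave a Benjamini-Hochberg adjusted p under 0.05 over all genes tested and its fold change was at least 1.5. By this rule 7 members were called in at least 1 comparison: Dnajb1, Dnaja1, Dnajb4 and Dnajb14 were higher after heat, Dnajb3 and Dnajc30 were lower, and Dnajc27 was lower at 42.5 °C. This count spans 6 comparisons. The share of all genes called is given below for each comparison, not for the 6 together.

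After 1 h at 40 °C, 1 of the 34 tested members was called higher (Dnajb1) and 0 lower by edgeR, where 0.276% of all genes tested were called higher and 0.0572% lower. At an unadjusted p under 0.05, 4 members were higher and 2 lower there, and DESeq2's adjusted p gave 3 and 0. On adjusted p alone, 2 members rose (Dnajb1 and Dnaja1) and 0 fell, beside 1.07% and 0.572% of all genes. After 6 h at 40 °C, 3 members were called higher (Dnaja1, Dnajb1 and Dnajb14) and 2 lower (Dnajb3 and Dnajc30), against 1.45% and 1.66% of all genes, and on adjusted p alone 10 rose and 7 fell, against 14.7% and 14.8%. After 1 h at 42.5 °C, 3 members were called higher (Dnajb1, Dnaja1 and Dnajb4) and 2 lower (Dnajc27 and Dnajb3), against 2.83% and 4.68% of all genes. There, 9 rose and 8 fell on adjusted p alone, against 20.8% and 22.3%. Expressed as shares of the 34 members, the adjusted p alone gave 29.4% higher and 20.6% lower at 40 °C/6 h, and 26.5% and 23.5% at 42.5 °C. The median log2 fold change over the 34 members was 0, 0.07 and 0.03 in the 3 comparisons, beside 0 for all genes in each. With all 4 control libraries, 0, 11 and 8 members passed the adjusted p in the 3 comparisons instead of 2, 17 and 17, an alternative added after the data were seen.

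**Figure D1:**
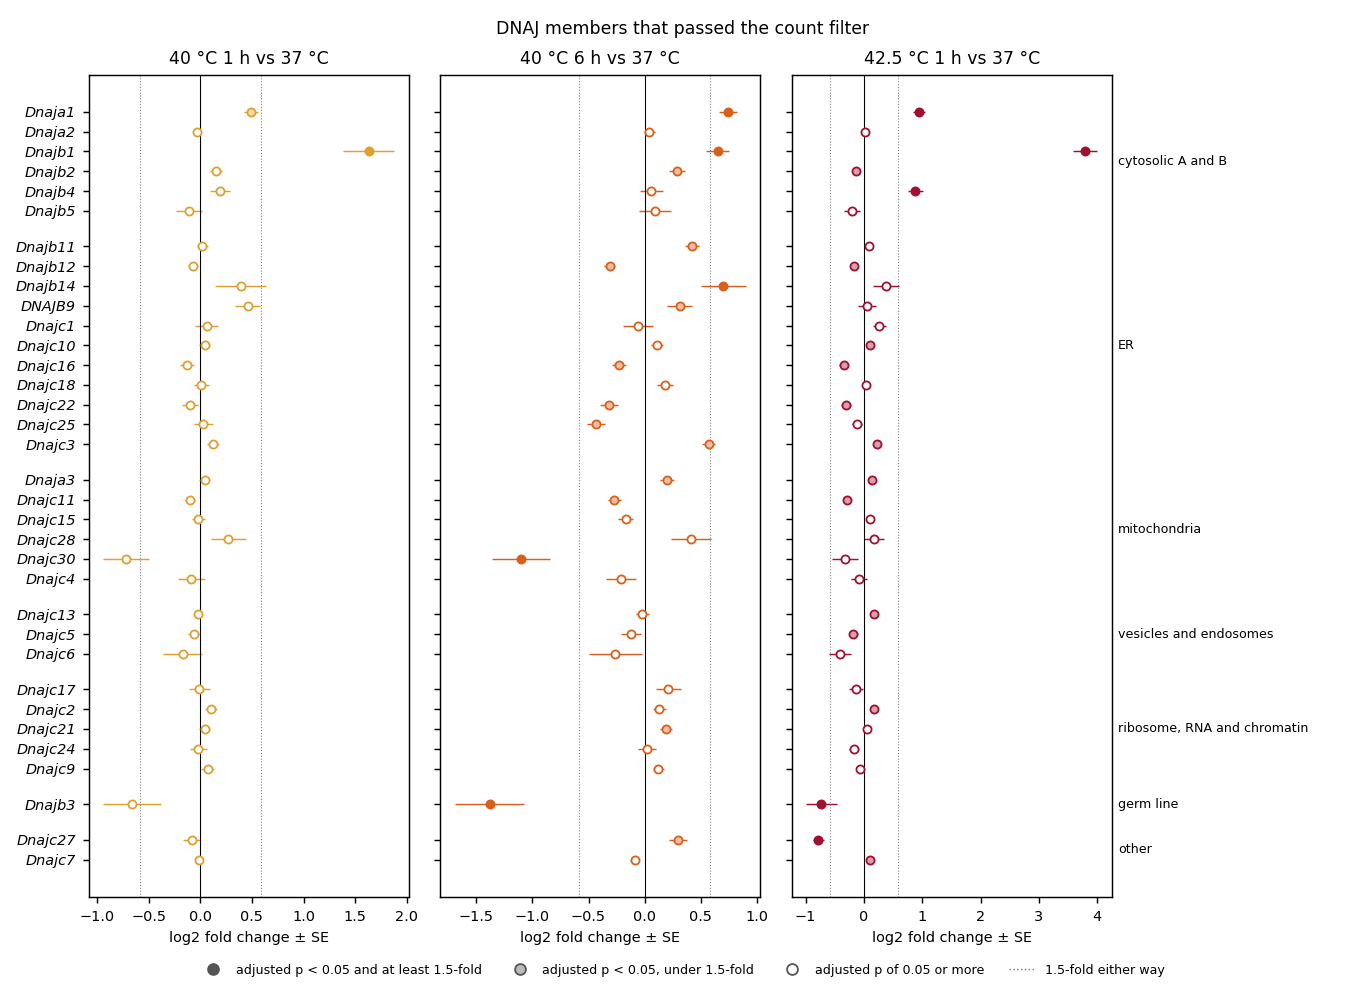
Log2 fold change against 37 °C of the 34 members that passed the count filter, with its standard error, in 3 panels of different x range, ordered by place in the cell. Filled points passed both the adjusted p and the 1.5-fold threshold, tinted points the adjusted p alone, and Dnajb1 at 42.5 °C lies farthest from 0, at 3.79.

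Among the cytosolic types A and B, Dnajb1 responded most steeply, Dnaja1 rose under every treatment and Dnajb4 passed the test at 42.5 °C, while Dnaja2 and Dnajb5 passed it nowhere. The numbers for these 6 tested members were 2 rising and 0 falling on adjusted p at 40 °C/1 h, 3 and 0 at 40 °C/6 h, and 3 and 1 at 42.5 °C. The shares over all genes were 1.07% and 0.572%, 14.7% and 14.8%, and 20.8% and 22.3%. With all 4 controls, 0 of these members rose on adjusted p at 40 °C/1 h, Dnajb1 and Dnaja1 being lost. There, 2 rose at 40 °C/6 h and 3 at 42.5 °C, and 0 fell.

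Dnajb1 (ENSCGRG00001013728) encodes the main heat-inducible HSP40, which guides HSP70 to misfolded and aggregated proteins. It stood at 28.9, 26.3 and 30.2 CPM in 37 °C replicates A, B and C, and at 32.6 CPM in replicate D. At 40 °C/1 h replicates A to D held 125, 52.9, 113 and 59.7 CPM. All 4 were above every control library, but A and C lay well above B and D. The level at 40 °C/6 h was 39.9, 54.5, 41.7 and 42.5 CPM, again above all controls and below most of the 1 h libraries. At 42.5 °C the 4 libraries held 343, 465, 242 and 526 CPM, far from every other group. Group means were 28.4 ± 1.99 CPM (SD, n = 3) at 37 °C, 87.5 ± 36.5 (n = 4) at 40 °C/1 h, 44.6 ± 6.66 (n = 4) at 40 °C/6 h and 394 ± 127 (n = 4) at 42.5 °C.

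The log2 fold change of Dnajb1 was 1.63 (SE 0.25) at 40 °C/1 h with an edgeR adjusted p of 0.00334, 0.65 (SE 0.10) at 40 °C/6 h with an adjusted p of 0.000112, and 3.79 (SE 0.21) at 42.5 °C with an adjusted p of 4.75e-09. With replicate D among the controls, Dnajb1 at 40 °C/1 h had a log2 fold change of 1.57 and was not called (edgeR adjusted p = 0.114). The value at 40 °C/6 h was close to the 1.5-fold threshold, and without replicate B of that group it was 0.54 and under it. In a joint fit of all groups it was 0.65 and did not pass (edgeR adjusted p = 0.0928). Leaving out 42.5 °C replicate D, the highest library and the deepest of its group, gave 3.62.

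Dnaja1 (ENSCGRG00001009232), a type A partner of HSP70 found in most tissues, was at 140, 128 and 126 CPM in the controls used and at 156 CPM in replicate D. At 40 °C/1 h it was at 199, 158, 203 and 182 CPM, at 40 °C/6 h at 200, 263, 205 and 214 CPM, and at 42.5 °C at 222, 264, 211 and 319 CPM. Each heated library lay above controls A to C, and the lowest of them, replicate B at 40 °C/1 h, lay just above replicate D. The steps were smaller than those of Dnajb1: the log2 fold change was 0.49 (SE 0.07, edgeR adjusted p = 0.00261) at 40 °C/1 h, under the 1.5-fold threshold, then 0.74 (SE 0.08, adjusted p = 4.48e-06) at 40 °C/6 h and 0.94 (SE 0.10, adjusted p = 4.43e-06) at 42.5 °C. With all 4 controls, the 40 °C/1 h value of Dnaja1 was 0.43 and no longer passed edgeR's test (adjusted p = 0.223).

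Dnajb4 (ENSCGRG00001022849), a type B member close to Dnajb1 in build, was at 16.0, 14.7 and 15.0 CPM in the controls. At 40 °C it was at 19.9, 14.5, 17.6 and 17.6 CPM after 1 h and at 15.1, 16.6, 13.7 and 18.2 CPM after 6 h, and both groups overlapped the controls. At 42.5 °C it was at 25.7, 30.8, 21.0 and 34.6 CPM, above every library of the other groups. The log2 fold change at 42.5 °C was 0.88 (SE 0.13) with an edgeR adjusted p of 7.87e-05, whereas the values of 0.19 (SE 0.10) and 0.06 (SE 0.10) at 40 °C did not pass (adjusted p = 0.399 and 0.71).

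**Figure D2:**
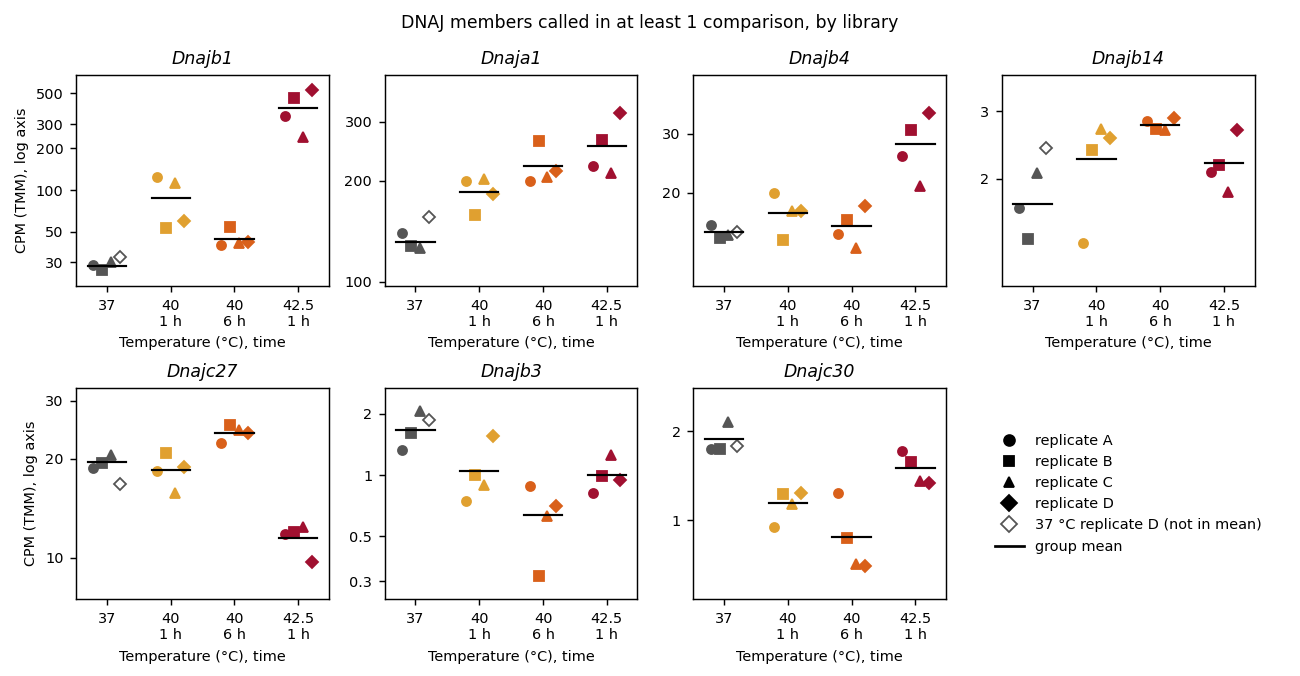
CPM on a log axis of each library for the 7 members called in at least 1 comparison, with marker shape for the replicate letter and a bar for the group mean, which leaves out 37 °C replicate D (open symbol). Dnajb1 at 42.5 °C runs from 242 to 526 CPM, above all other libraries, and Dnajc27 lies highest at 40 °C/6 h and lowest at 42.5 °C.

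Dnajb2, a cytosolic and ER-facing member rich in neurons that hands clients to the proteasome, moved in opposite directions under the long mild and the moderate treatment. It was at 67.9, 61.0 and 64.1 CPM in the controls used but at 84.4 CPM in replicate D. It held 74.5, 67.3, 68.7 and 74.7 CPM at 40 °C/1 h, 77.1, 88.1, 82.5 and 68.4 CPM at 40 °C/6 h and 58.1, 58.3, 56.1 and 61.4 CPM at 42.5 °C. It rose by 0.29 on the log2 scale (SE 0.07, edgeR adjusted p = 0.0062) at 40 °C/6 h and fell by 0.14 (SE 0.05, adjusted p = 0.0431) at 42.5 °C, where the groups overlapped. Set against each other, 42.5 °C was lower than 40 °C/6 h by a log2 difference of -0.44 (SE 0.07, edgeR adjusted p = 5.51e-05), and all 4 libraries lay below those 4. The level of Dnajb2 in replicate D was above nearly every heated library, and neither difference from 37 °C passed with that library included.

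Dnaja2, another type A partner of HSP70 in the cytosol, stayed within a narrow band: 165, 157 and 159 CPM in the controls, 159, 153, 161 and 156 CPM at 40 °C/1 h, 159, 164, 168 and 170 CPM at 40 °C/6 h, and 166, 166, 160 and 162 CPM at 42.5 °C. Its log2 fold changes were -0.03 (SE 0.04), 0.04 (SE 0.05) and 0.02 (SE 0.04). Dnajb5, another type B relative of Dnajb1, was at 6.53, 5.91 and 5.18 CPM in the controls, and its heated libraries ran from 4.34 to 7.49 CPM with overlap in each group. Its log2 fold changes of -0.11 (SE 0.13), 0.09 (SE 0.14) and -0.21 (SE 0.14) did not pass the test.

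Direct comparisons between heated groups separated the cytosolic members further. Between the 1 h treatments, 2 members were called higher at 42.5 °C than at 40 °C (Dnajb1 and Dnajb4) and 1 lower (Dnajc27), where 1.75% and 3.51% of all genes were called. Dnajb1 differed by 2.16 on the log2 scale (SE 0.25, edgeR adjusted p = 7.72e-06) and Dnajb4 by 0.68 (SE 0.13, adjusted p = 0.000767), the latter falling to 0.57 and out of the call without 42.5 °C replicate D. Dnaja1 was higher by 0.45 (SE 0.10, adjusted p = 0.00342), under the 1.5-fold threshold. Between 6 h and 1 h at 40 °C, 0 members were called higher by edgeR and 1 lower, against 0.556% and 0.728% of all genes (without the fold threshold, 9 were higher at an unadjusted p under 0.05, and 5 by DESeq2's adjusted p). That member was Dnajb1, with a log2 difference of -0.97 (SE 0.21, edgeR adjusted p = 0.00453), although replicate B at 6 h, at 54.5 CPM, lay above replicate B at 1 h, at 52.9 CPM. Dnaja1 went the other way, being higher at 6 h by 0.25 (SE 0.08, adjusted p = 0.0435) with overlapping groups. Between 42.5 °C and 40 °C/6 h, 3 members were called higher and 1 lower, against 2.53% and 5.72% of all genes. Dnajb1 was higher by 3.14 (SE 0.18, edgeR adjusted p = 8.63e-10), Dnajb4 by 0.82 (SE 0.13, adjusted p = 6.28e-05) and the mitochondrial Dnajc30 by 0.77 (SE 0.26, adjusted p = 0.0224), and Dnajc27 was lower. The call of Dnajc30 rested on 9 to 14 counts per library at 40 °C/6 h and 14 to 19 at 42.5 °C. It held in 10 of 15 alternative fits.

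Among the ER members, some rose and some fell after the long mild treatment. On edgeR's adjusted p, 0 of the 11 changed at 40 °C/1 h, 4 rose and 4 fell at 40 °C/6 h, and 2 rose and 3 fell at 42.5 °C. Over all genes the shares were 1.07% and 0.572%, 14.7% and 14.8%, and 20.8% and 22.3%. With all 4 controls, 2 rose and 3 fell at 40 °C/6 h, DNAJB9, Dnajb14 and Dnajc16 being lost, and 1 rose and 1 fell at 42.5 °C (Dnajc3 and Dnajc22). At 40 °C/1 h an unadjusted p under 0.05 gave 1 (higher) and DESeq2's adjusted p 1, and DESeq2 gave 2 rising and 4 falling at 40 °C/6 h. At 40 °C/6 h the risers were Dnajc3, Dnajb11, DNAJB9 and Dnajb14. The first 3 act inside the ER lumen with the ER HSP70 (BiP, encoded by Hspa5), and Dnajb14 is a membrane protein. Those that fell were Dnajb12, Dnajc16, Dnajc22 and Dnajc25, also membrane proteins. Dnajc1, Dnajc10 and Dnajc18 did not pass there, although Dnajc10, at 0.11 (SE 0.05, edgeR adjusted p = 0.155), is a lumen member too. Places were assigned by name and not measured here, and a split by place was not tested.

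Dnajc3 (ENSCGRG00001016665; P58IPK), which brings unfolded proteins to BiP and also restrains the kinase PERK, was at 76.0, 74.4 and 82.8 CPM in the controls and at 73.6 CPM in replicate D. At 40 °C/6 h it was at 108, 120, 120 and 116 CPM, above every library of all other groups. It lay at 77.0, 87.7, 83.1 and 90.5 CPM at 40 °C/1 h, overlapping the controls, and at 90.3, 92.3, 94.0 and 88.4 CPM at 42.5 °C, above them. Its log2 fold change was 0.57 (SE 0.06, edgeR adjusted p = 2.64e-06) at 40 °C/6 h, which is 1.49-fold and just under the threshold, and 0.23 (SE 0.05, adjusted p = 0.0021) at 42.5 °C. With all 4 controls the 6 h value was 0.59 and was called. Set directly against each other, 6 h was above 1 h at 40 °C by 0.45 (SE 0.06, edgeR adjusted p = 8.88e-05), and 42.5 °C differed from 40 °C/6 h by -0.35 (SE 0.05, adjusted p = 2.12e-05).

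Dnajb11 (ENSCGRG00001024828; ERdj3), a soluble co-chaperone that binds clients ahead of BiP, was at 120, 115 and 110 CPM in the controls and at 151, 176, 150 and 142 CPM at 40 °C/6 h, with no overlap. The other heated libraries, at 112 to 122 CPM at 40 °C/1 h and 119 to 128 CPM at 42.5 °C, overlapped the controls. The rise at 40 °C/6 h was 0.42 on the log2 scale (SE 0.06, edgeR adjusted p = 0.000147), against 0.02 (SE 0.05) and 0.09 (SE 0.04) for the 1 h treatments. It was above 40 °C/1 h by 0.41 (SE 0.06, adjusted p = 0.000246).

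DNAJB9 (ENSCGRG00001006614; ERdj4), which recruits BiP to the stress sensor IRE1 and so restrains it and takes part in ER-associated degradation, was at 13.3, 15.6 and 16.9 CPM in the controls. It was at 20.6, 16.7, 25.1 and 21.2 CPM at 40 °C/1 h and at 19.7, 15.6, 18.9 and 21.2 CPM at 40 °C/6 h, and both groups overlapped the controls by 1 library, replicate B. At 42.5 °C it was at 14.1, 14.3, 12.2 and 21.8 CPM, with replicate D alone above the controls. The log2 fold change at 40 °C/1 h was 0.46 (SE 0.12, edgeR adjusted p = 0.077). In this comparison the replicate letters were taken to pair the libraries, and the edgeR fit with the letter as a block gave 0.44 with an adjusted p of 0.00894. At 40 °C/6 h the log2 fold change was 0.31 (SE 0.11, adjusted p = 0.0433), which did not pass with all 4 controls (0.26, adjusted p = 0.192). Without 42.5 °C replicate D, DNAJB9 differed between the 1 h treatments by -0.62 and was called lower at 42.5 °C (edgeR adjusted p = 0.00119), whereas with it the difference was -0.41 (adjusted p = 0.0448).

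Dnajb14 (ENSCGRG00001020153), an ER membrane protein whose J domain faces the cytosol, rested on few reads. Its counts were 24, 19 and 24 in the controls, 20, 31, 33 and 33 at 40 °C/1 h, 32, 34, 34 and 37 at 40 °C/6 h and 23, 22, 19 and 34 at 42.5 °C. At 40 °C/6 h it stood at 2.83, 2.69, 2.68 and 2.88 CPM, against 1.68, 1.39 and 2.07 CPM in the controls and 2.40 CPM in replicate D. The log2 fold change of 0.70 (SE 0.20, edgeR adjusted p = 0.0145) was 0.57 and not called with all 4 controls (adjusted p = 0.0735) or without control replicate B (adjusted p = 0.0858), and without control replicate A it was 0.70 with an adjusted p of 0.0512. At 40 °C/1 h and 42.5 °C the values of 0.39 (SE 0.25) and 0.38 (SE 0.22) did not pass.

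**Figure D3:**
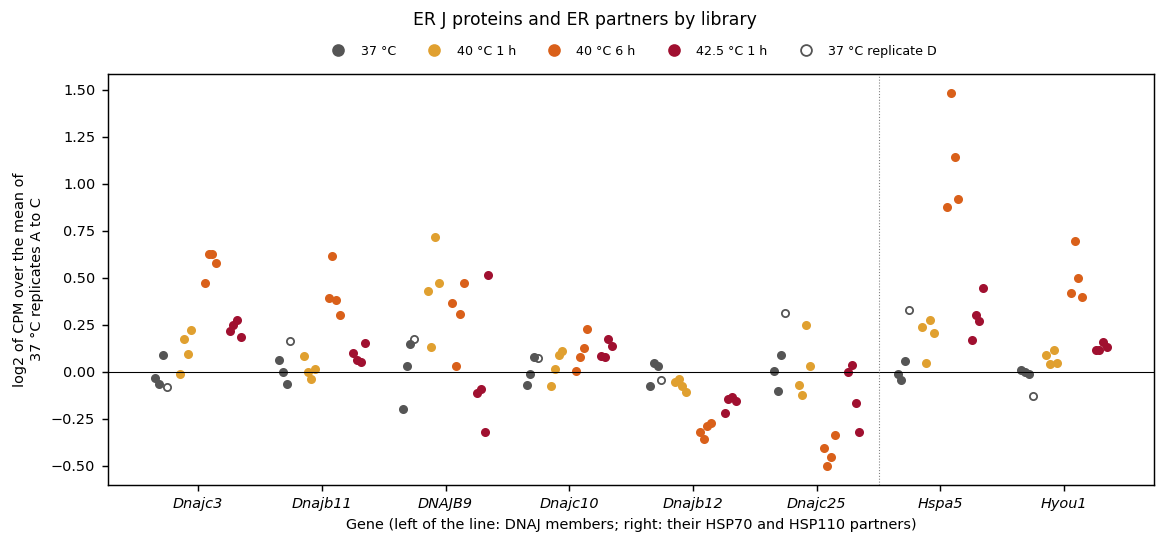
Log2 of each library's CPM over the mean of 37 °C replicates A to C for 6 ER members and, right of the line, Hspa5 and Hyou1. Libraries at 40 °C/6 h lie above the other groups for Dnajc3, Dnajb11, Hspa5 and Hyou1, and below all controls for Dnajb12 and Dnajc25.

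The ER members that fell after 6 h did so by small amounts. Dnajb12, a partner of Dnajb14 in the ER membrane that works in the degradation of membrane proteins, was at 80.5, 87.6 and 86.6 CPM in the controls, 81.7, 82.5, 80.5 and 78.7 CPM at 40 °C/1 h, 67.9, 66.3, 69.5 and 70.3 CPM at 40 °C/6 h and 72.9, 76.9, 77.4 and 76.3 CPM at 42.5 °C. The log2 difference from 37 °C was -0.31 (SE 0.05, edgeR adjusted p = 0.000347) at 40 °C/6 h and -0.17 (SE 0.05, adjusted p = 0.012) at 42.5 °C. With all 4 controls the fall of Dnajb12 at 40 °C/6 h still passed (-0.30, adjusted p = 0.0138), and that at 42.5 °C did not (-0.15, adjusted p = 0.109). Dnajc25 was at 21.3, 19.8 and 22.6 CPM in the controls and at 16.0, 15.0, 15.5 and 16.8 CPM at 40 °C/6 h, a difference of -0.43 (SE 0.08, adjusted p = 0.00121). Its libraries at 40 °C/1 h (19.5 to 25.2 CPM) and at 42.5 °C (17.0 to 21.8 CPM) overlapped the controls. Against 40 °C/1 h it was lower as well, by -0.45 (SE 0.09, edgeR adjusted p = 0.0028).

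Dnajc16 was lower at 40 °C/6 h by -0.23 (SE 0.06, edgeR adjusted p = 0.0114) and at 42.5 °C by -0.35 (SE 0.07, adjusted p = 0.000899). Its libraries held 38.7, 41.3 and 40.5 CPM at 37 °C, 33.4, 33.4, 36.1 and 34.3 CPM at 40 °C/6 h and 32.2, 28.9, 35.1 and 30.5 CPM at 42.5 °C, but replicate D of the controls, at 34.3 CPM, lay among the heated ones. Neither fall of Dnajc16 passed edgeR's test with that library included (-0.18, adjusted p = 0.178, and -0.29, adjusted p = 0.0593). Dnajc22 was at 27.2, 32.4 and 32.7 CPM at 37 °C, 23.8, 25.3, 26.5 and 23.0 CPM at 40 °C/6 h and 26.7, 23.8, 25.1 and 23.8 CPM at 42.5 °C. Both treatments lay below the controls, by -0.32 (SE 0.08, edgeR adjusted p = 0.00764) and -0.31 (SE 0.08, adjusted p = 0.00549). Dnajc10, an ER disulfide reductase (ERdj5), was at 335, 350 and 372 CPM in the controls and at 373, 372, 398 and 388 CPM at 42.5 °C, where it rose by 0.11 on the log2 scale (SE 0.04, edgeR adjusted p = 0.0456). In replicate D Dnajc10 was at 370 CPM, and the rise did not pass with that library (adjusted p = 0.212). The remaining ER members did not pass against 37 °C: Dnajc1 ranged from 7.17 to 11.1 CPM over all heated libraries with 8.21, 8.61 and 9.23 CPM in the controls, and Dnajc18 from 24.9 to 31.6 CPM with 25.4, 25.5 and 27.9 CPM.

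Mitochondrial members numbered 6, all tested. Over all genes, 1.07% rose and 0.572% fell on adjusted p at 40 °C/1 h. The shares were 14.7% and 14.8% at 40 °C/6 h, and 20.8% and 22.3% at 42.5 °C. Of the 6 members, 0 passed edgeR's test at 40 °C/1 h (1 was lower at an unadjusted p under 0.05, and DESeq2 gave 0). At 40 °C/6 h 1 rose and 2 fell, and at 42.5 °C 1 rose and 1 fell. Dnaja3 (Tid1), the J partner of mitochondrial HSP70, was the riser in both: it was at 146, 141 and 131 CPM at 37 °C, 153, 174, 155 and 158 CPM at 40 °C/6 h and 153, 147, 161 and 151 CPM at 42.5 °C, or 0.20 (SE 0.06, adjusted p = 0.0135) and 0.13 (SE 0.05, adjusted p = 0.0405) on the log2 scale. In replicate D of the controls Dnaja3 was at 152 CPM, and neither rise passed with that library. Dnajc11, which belongs to the cristae-organizing complex, fell under both: from 185, 192 and 185 CPM it went to 173, 156, 152 and 145 CPM at 40 °C/6 h and to 157, 158, 157 and 146 CPM at 42.5 °C, log2 fold changes of -0.27 (SE 0.06, edgeR adjusted p = 0.0018) and -0.29 (SE 0.04, adjusted p = 5.55e-05).

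Dnajc30 (ENSCGRG00001009358), encoded by a gene without introns in mammals and linked to the respiratory chain, was called lower at 40 °C/6 h from few reads. Its counts were 25, 24 and 25 in the controls, 14, 16, 14 and 16 at 40 °C/1 h, 14, 11, 9 and 9 at 40 °C/6 h and 19, 16, 14 and 17 at 42.5 °C. Every heated library lay below every control in CPM, replicate D included, but only the 6 h group passed: the log2 fold change was -1.10 (SE 0.26, edgeR adjusted p = 0.00455), against -0.72 (SE 0.22, adjusted p = 0.132) at 40 °C/1 h and -0.33 (SE 0.22, adjusted p = 0.264) at 42.5 °C. From the pooled counts, 43 against 74, the ratio of 6 h to 37 °C was 0.465 (exact 95% interval 0.311 to 0.686, counting error only). Dnajc4, Dnajc15 and Dnajc28 did not pass against 37 °C.

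Germ line members were almost silent, and the testis gene Dnajb3 was the 1 of 6 that passed the filter. Dnajb3 (ENSCGRG00001009691) had counts of 19, 22 and 24 in the controls, 11, 13, 11 and 20 at 40 °C/1 h, 10, 4, 8 and 9 at 40 °C/6 h and 9, 10, 13 and 12 at 42.5 °C. Its level was lower than all controls in the 6 h and 42.5 °C groups and overlapped them at 40 °C/1 h. The log2 fold change was -1.38 (SE 0.31, edgeR adjusted p = 0.00315) at 40 °C/6 h and -0.73 (SE 0.26, adjusted p = 0.0361) at 42.5 °C. The 42.5 °C call was lost in 9 of the 15 alternative fits that tested it, among them DESeq2 (adjusted p = 0.178), the fit with the replicate block (adjusted p = 0.0576) and the fits without any 1 of control replicates B and C (adjusted p = 0.0789 and 0.141) and 42.5 °C replicates A, B and D (adjusted p = 0.0822, 0.0654 and 0.0643).

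Dnajb7 (ENSCGRG00001010409), also a testis gene, did not pass the filter and was singled out after its values were seen. It had 2, 0 and 3 counts in the controls and 0 in replicate D, 2, 1, 0 and 1 at 40 °C/1 h, 2, 2, 0 and 1 at 40 °C/6 h, and 9, 20, 4 and 27 at 42.5 °C. All 4 libraries at 42.5 °C thus lay above all 12 others. Summed, 60 counts at 42.5 °C against 5 at 37 °C gave a ratio of 10.7 (exact 95% interval 4.35 to 34.3, counting error only), while the ratios at 40 °C were 0.598 (0.119 to 2.78) after 1 h and 0.8 (0.184 to 3.47) after 6 h. Without the filter, edgeR gave Dnajb7 an adjusted p of 5.07e-06 at 42.5 °C, and DESeq2 gave 0.000414. By RefSeq gene positions on another assembly than that of the counts (CriGri-PICRH-1.0), Dnajb7 lies within the span of Xpnpep3, a peptidase gene. Xpnpep3 was at 34.3, 33.9 and 30 CPM in the controls and at 53.7, 68.6, 65.4 and 84.4 CPM at 42.5 °C, a log2 fold change of 1.05 (SE 0.11, edgeR adjusted p = 3.35e-06). Whether reads of Xpnpep3 were counted for Dnajb7 was not tested, as the sources used here do not give the strand setting of the counts. Dnajb13 (3 to 12 counts), Dnajc5b (0 to 4) and Dnajc12 (0 to 7, a member outside the germ line group) gave ratios to 37 °C whose exact 95% intervals all included 1.

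Dnajc27 (ENSCGRG00001023794; RBJ), a small GTPase of the Rab type joined to a J domain, turned its direction between treatments and was called at 42.5 °C. It was at 18.7, 19.4 and 20.5 CPM in the controls and at 16.8 CPM in replicate D. At 40 °C/6 h it was at 22.4, 25.3, 24.5 and 23.9 CPM, above every control, and at 42.5 °C at 11.8, 12.0, 12.4 and 9.70 CPM, below every control. At 40 °C/1 h it held 18.4, 20.9, 15.7 and 18.9 CPM and overlapped the controls. The log2 fold change was 0.30 (SE 0.08, edgeR adjusted p = 0.0094) at 40 °C/6 h and -0.78 (SE 0.10, adjusted p = 1.58e-05) at 42.5 °C, with -0.08 (SE 0.09, adjusted p = 0.75) at 40 °C/1 h. Tested directly, 42.5 °C differed from 40 °C/1 h by -0.70 (SE 0.11, edgeR adjusted p = 0.000109) and from 40 °C/6 h by -1.08 (SE 0.09, adjusted p = 1.02e-07), and 6 h at 40 °C exceeded 1 h by 0.38 (SE 0.09, adjusted p = 0.00627). With all 4 controls both directions still passed (0.34, adjusted p = 0.0365, and -0.72, adjusted p = 0.00228).

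The remaining members shifted little. Of the 5 at the ribosome, RNA and chromatin, 1 rose at 40 °C/6 h (Dnajc21, a ribosome assembly factor, by 0.19 on the log2 scale with SE 0.05) and 1 at 42.5 °C (Dnajc2, the J partner of the ribosome-associated complex, by 0.18 with SE 0.05), and 0 fell by edgeR, with or without the adjustment, or by DESeq2. Their log2 fold changes ran from 0.02 to 0.21 at 6 h and from -0.17 to 0.18 at 42.5 °C. Of the 3 on vesicles and endosomes, Dnajc13, an endosomal sorting protein, rose at 42.5 °C by 0.17 (SE 0.04) and Dnajc5, the cysteine string protein, fell by 0.18 on the log2 scale (SE 0.07), while 0 passed at 40 °C by edgeR, with or without the adjustment, or by DESeq2. Dnajc7, a J protein that binds HSP70 and HSP90, rose by 0.10 (SE 0.04) at 42.5 °C. None of these last 5 differences passed with control replicate D included, and replicate D alone held 86.3 CPM of Dnajc21 and 314 CPM of Dnajc7, above all other libraries of either gene. On adjusted p, 1.07% of all genes rose and 0.572% fell at 40 °C/1 h. The shares were 14.7% and 14.8% at 40 °C/6 h, and 20.8% and 22.3% at 42.5 °C.

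The other genes of the HSP70 cycle were taken from a list of 35 names, of which 26 were found by name and 22 passed the filter. Names that were not matched, and so were not analysed here, include the main heat-inducible and constitutive HSP70 genes (HSPA1A, HSPA1B and HSPA8) and the mitochondrial HSPA9, so the counts below do not cover the whole HSP70 response. Against 37 °C, 3 rose and 0 fell on edgeR's adjusted p at 40 °C/1 h, 6 rose and 2 fell at 40 °C/6 h, and 8 rose and 2 fell at 42.5 °C, beside 1.07% and 0.572%, 14.7% and 14.8%, and 20.8% and 22.3% of all genes, with medians over the 22 of 0.03, 0.02 and 0.04 beside 0 for all genes. Those called were Hsph1 and Bag3 at 40 °C/1 h, Hsph1, Hspa5 and Stip1 at 40 °C/6 h, and Hsph1 and Bag3 at 42.5 °C. The alternative fits ran over all genes, but values of single genes were kept for the DNAJ members only. Whether these calls hold with replicate D is therefore not given here. With all 4 controls, 3 of 10453 genes were called at 40 °C/1 h, against 35 of 10494 without replicate D. Hsph1, an HSP110 that releases ADP from HSP70, had log2 fold changes of 1.08 (SE 0.17), 1.21 (SE 0.14) and 2.96 (SE 0.20). Bag3, an exchange factor that routes clients to autophagy, had 0.86 (SE 0.17), 0.14 (SE 0.05, not passing) and 2.75 (SE 0.16). From 1 h to 6 h at 40 °C, Bag3 differed by -0.72 (SE 0.14, edgeR adjusted p = 0.00299), in the direction of Dnajb1, whereas Hsph1 differed by 0.14 (SE 0.19, adjusted p = 0.648). Stip1, which links HSP70 to HSP90, had 0.27 (SE 0.05), 0.76 (SE 0.09) and 0.51 (SE 0.10).

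Hspa5, the HSP70 of the ER lumen, was at 2060, 2020 and 2160 CPM in the controls, 3820, 5820, 4600 and 3940 CPM at 40 °C/6 h and 2340, 2560, 2510 and 2830 CPM at 42.5 °C. The log2 difference from 37 °C was 1.13 (SE 0.10, edgeR adjusted p = 1.6e-06) at 40 °C/6 h and 0.29 (SE 0.05, adjusted p = 0.000433) at 42.5 °C. Hyou1, the HSP110 of the ER, had 0.50 (SE 0.06) and 0.12 (SE 0.04). Tested directly, 42.5 °C lay below 40 °C/6 h for both, by -0.83 (SE 0.10, edgeR adjusted p = 3.27e-06) and -0.38 (SE 0.06, adjusted p = 3.2e-05), as it did for Dnajc3 (-0.35) and Dnajb11 (-0.34). Hspa13 in the ER and Sgta in the cytosol fell at both 6 h (-0.22 and -0.16) and 42.5 °C (-0.24 and -0.33).

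**Figure D4:**
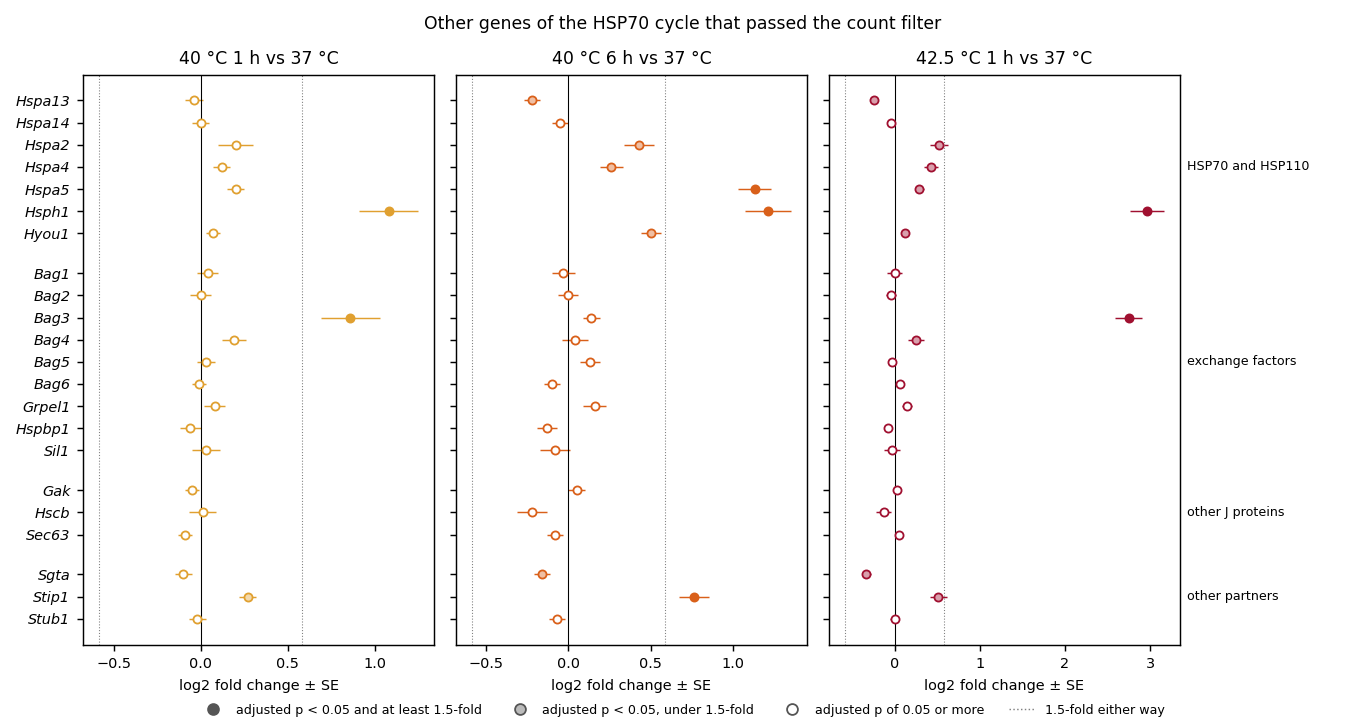
Log2 fold change against 37 °C, with its standard error, of the 22 other genes of the HSP70 cycle that passed the count filter, in 3 panels of different x range. Hsph1 and Bag3 stand apart at 42.5 °C, at 2.96 and 2.75, and Hspa5 at 40 °C/6 h, at 1.13.

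Several of the inducible genes ranked the libraries of a heated group alike in the 1 h treatments. At 42.5 °C the order was D, B, A, C from highest to lowest for Dnajb1, Dnaja1, Dnajb4, Hsph1 (1840, 2770, 1730 and 3770 CPM in A to D) and Bag3 (468, 633, 449 and 817 CPM). At 40 °C/1 h replicates A and C were the high pair and D and B the low pair for Dnajb1, Dnaja1, Hsph1 (874, 449, 861 and 549 CPM) and Bag3 (208, 112, 194 and 122 CPM). At 40 °C/6 h replicate B was highest for Dnajb1, Dnaja1, Dnajb11, Hsph1 (597, 1070, 705 and 637 CPM) and Hspa5, but their other libraries came in different orders. Dnajb4 was there highest in D, and Bag3 lay between 96.2 and 97.3 CPM, with B lowest. The highest library was also the deepest of its group at 42.5 °C (replicate D, 13202441 counts) and at 40 °C/6 h (replicate B, 12700249 counts), and for Dnajb1 at 40 °C/1 h (replicate A, 14668365 counts). Without that library, Dnajb1 had log2 fold changes of 1.40 at 40 °C/1 h, 0.54 at 40 °C/6 h and 3.62 at 42.5 °C. Depth and rank did not run together throughout. At 42.5 °C the shallowest library, replicate B (10504192 counts), came next after replicate D. At 40 °C/1 h the shallowest, replicate C (12102528 counts), was in the high pair. At 40 °C/6 h replicate D (12643725 counts) was nearly as deep as replicate B. The part of depth or of heat dose per culture in these differences was not tested.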

How the data were processed

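Total RNA of 16 CHO cultures was made into TruSeq libraries and read on a NextSeq as paired ends. The authors demultiplexed the reads with bcl2fastq (per the labels), trimmed, mapped and counted them in CLC Genomics Workbench against the CHOK1GS_HDv1 genome, and deposited raw counts per gene, the unit used throughout. The annotation release, strand setting and treatment of multi-mapped reads are not given in the sources used here. From the deposited counts, edgeR 4.0.16 (R 4.3.3) was run with filterByExpr defaults, TMM scaling and a quasi-likelihood test for each comparison of 2 groups, over all genes, with Benjamini-Hochberg adjustment. Calls needed an adjusted p under 0.05 together with 1.5-fold or more in either direction, as in the study. The SE is the log2 fold change divided by the square root of F. The study left out 1 control that it does not name. The control counts it prints are those of replicates A, B and C, so replicate D was taken to be that library and left out here. Totals of 10504192 to 14668365 counts set the precision, and exact intervals cover counting error only. On simulated counts 200 of 200 changed genes were recovered at 40 °C/1 h, and 3 unchanged genes were called. The planted changes were beyond 1.5-fold, in well-counted genes with little spread between libraries. The recovery therefore does not give the power for members with few counts, near the threshold or with libraries far apart.

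Alternatives were DESeq2 1.42.0 (its size factors and its Wald test), no filter, at least 10 counts in every library, all 4 controls, a joint fit of the 4 groups, a block for the replicate letter, the adjusted p without a fold threshold, glmTreat and each library left out. The labels call the cultures biological repeats. Letters were checked by correlating the deviations of same-lettered libraries from their group means. For 40 °C/1 h against 37 °C every pair was over 0.1 (0.12 to 0.20), so there the letters were taken to pair the libraries on these data, and in no other comparison were they. Differently lettered pairs were not set beside these values, and the sample titles do not say that letters pair cultures. Members named with values are those called in any comparison and those of the cytosolic and ER groups. Members and lists were chosen with earlier results of these data known. RefSeq gene positions (CriGri-PICRH-1.0) served only for neighbouring genes.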

Additional observations from a re-analysis of the deposited data

Results flagged for a closer look

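In 136 groups of 4 libraries (34 members), the highest or lowest library stood apart by Dixon's 95% critical value in 10, where chance alone flags about 1 group in 20. Of these, 5 concerned 37 °C replicate D, which was not used in the comparisons: Dnajc21 at 86.3 CPM (others 72.9 to 73.6), Dnajc15 at 45.3 (35.1 to 36.5), Dnajc7 at 314 (238 to 243), Dnajc9 at 93.1 (70.3 to 72.5) and, on the low side, Dnajc5 at 23.1 (32.3 in each of the others). In 37 °C replicate C, Dnajc18 was high at 27.9 CPM and Dnajc30 at 2.16 CPM. In 42.5 °C replicate D, Dnajc11 was low at 146 CPM and Dnajc6 high at 2.76 CPM. In replicate A at 40 °C/6 h, Dnajc5 was high at 37.0 CPM (others 26.9 to 28.2).

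Effects of treatments that differed by edgeR's direct test with an adjusted p under 0.05 and at least 1.5-fold, on the log2 scale, were those of Dnajb1 (2.16 for 42.5 °C against 40 °C/1 h, 3.14 against 40 °C/6 h, and -0.97 for 6 h against 1 h at 40 °C), Dnajb4 (0.68 and 0.82 for 42.5 °C against 40 °C/1 h and 6 h), Dnajc27 (-0.70 and -1.08 for the same) and Dnajc30 (0.77 for 42.5 °C against 40 °C/6 h). The call of Dnajc30 was lost with DESeq2 (adjusted p = 0.111), without 40 °C/6 h replicates C or D (edgeR adjusted p = 0.0677 and 0.0608) and without 42.5 °C replicate A (0.0631).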

How the results depend on the processing

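No called change of a DNAJ member turned its direction under any alternative run. With all 4 controls the count of called members at 40 °C/1 h went from 1 to 0 by edgeR, where Dnajb1 kept a log2 fold change of 1.57 (adjusted p = 0.114), and the count with an adjusted p under 0.05 went from 2 to 0, from 17 to 11 at 40 °C/6 h and from 17 to 8 at 42.5 °C. At least 10 counts in every library gave 3 called members instead of 5 at 40 °C/6 h, since Dnajb3 and Dnajc30 were not tested. Adjusted p alone gave 2, 17 and 17 against 37 °C, 12 for 42.5 °C against 40 °C/1 h, 10 for 6 h against 1 h at 40 °C and 16 for 42.5 °C against 40 °C/6 h. Over all genes it gave 172 of 10494, 3091 of 10499 and 4510 of 10470 against 37 °C. Between heated groups, in the same order, it gave 3767 of 10441, 1931 of 10439 and 4904 of 10427. glmTreat, which tests for a change beyond 1.5-fold, gave 0, 0 and 2 against 37 °C and 1, 0 and 2 between heated groups. Over all genes glmTreat gave 2, 31 and 262 against 37 °C and 171, 8 and 260 between heated groups. Leaving out 1 library gave 1 to 1, 4 to 6 and 4 to 6 called members against 37 °C, and 3 to 4, 1 to 1 and 3 to 4 between heated groups in the same order.

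With the replicate block, 1, 5 and 4 members were called against 37 °C. At 40 °C/1 h, where the letters were taken to pair the libraries, the block raised the genes with an adjusted p under 0.05 from 172 to 634 of 10494 and the members from 2 to 3, adding DNAJB9. In the other comparisons the mean correlation of same-lettered libraries was 0.03 to 0.06, and the block dropped the call of Dnajb3 at 42.5 °C (adjusted p = 0.0576). Members near 10 counts per library, such as Dnajb3 and Dnajc30, are limited by depth.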
